A study of Homo sapiens with 33 samples.

Results

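Retinoid metabolism and response genes were followed in 3 HNSCC cell lines under the EGFR-blocking antibody cetuximab. They are 9 genes, ALDH1A3, CRABP2, RARB, RARG, RARRES1, DHRS3, DHRS9, CYP26A1 and CYP26B1, taken by symbol from the 56470 gene symbols of the count table, and all 9 were found. Over days 1 to 5, DHRS9 fell in SCC6 and SCC25, ALDH1A3 fell in SCC6, RARG rose in SCC1 and SCC6, and RARB rose in SCC1 and SCC25. RARB had a low level, and its log2 fold change was 0.23 in SCC1 and 0.55 in SCC25 with the flow cell as a covariate, not called in either. The fall of DHRS9 in SCC6 had the largest log2 fold change among the genes tested of these 9. Its size is rough, since each SCC6 library with cetuximab had 3 to 8 counts of DHRS9. The size of the change differed between SCC6 and SCC25 for DHRS9, and between lines for RARG and RARRES1. The difference of RARRES1 was not called with day as a block or without the SCC6 PBS library of day 5.

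Retinoids are made from retinol, which cells take up, bind and store as esters. Retinol is oxidised to retinaldehyde by dehydrogenases such as DHRS9, and DHRS3 catalyses the reverse step. ALDH1A enzymes, among them ALDH1A3, then oxidise retinaldehyde to retinoic acid irreversibly. CRABP2 carries retinoic acid to its nuclear receptors, among them RARB and RARG, which bind DNA as partners of RXR receptors. CYP26A1 and CYP26B1 degrade retinoic acid, and RARRES1 was named for its induction by a retinoid. In squamous epithelium, retinoic acid is known for restraining keratinisation, and RARB is known as a retinoic acid target whose expression is often low in head and neck tumours.

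SCC1 and SCC6 are the lines UM-SCC-1 and UM-SCC-6. Each of the 3 lines was grown with PBS, sampled on days 0 to 5, or with 100 nM cetuximab, sampled on days 1 to 5, and there are 33 libraries of bulk RNA in all. Each line, treatment and day has 1 library. SCC6 with cetuximab is the exception, where 2 libraries are labelled day 2, called 2a and 2b here, and none is labelled day 1. Days stand in for replicates, so p-values measure the spread between these libraries, changes over time included. The group means below are over the 5 libraries of days 1 to 5. Library totals of days 1 to 5 ranged from 36337093 to 47225163 counts in SCC1, from 28508758 to 80727478 in SCC6 and from 37242988 to 52144493 in SCC25. Flow cells and treatments were not crossed. In SCC1, the PBS library of day 5 was the only PBS library of days 1 to 5 that shared a flow cell with the cetuximab libraries. In SCC6, the flow cell with both treatments held PBS of days 2 to 5 and cetuximab 2a, 2b and day 3. That of SCC25 held all PBS libraries and cetuximab of days 1 and 2. Values within flow cells therefore also compare different days. All 9 markers of squamous epithelium examined had mean levels over 1 CPM in every group. Their summed level was 1920 to 3200 CPM with PBS and 6970 to 11900 CPM with cetuximab in SCC1, where 7 of the 9 rose and 1, EPCAM, fell, so the retinoid values of SCC1 moved beside a shift of keratins. In SCC6 the sums were 1460 to 3020 and 1950 to 2830 CPM, but 3 of the 9 rose and 3 fell. KRT6A went there from 261 ± 234 to 22.9 ± 17.6 CPM (mean ± SD, log2 fold change -3.54) and EPCAM changed by -0.93, while KRT5 changed by 2.35 and KRT17 by 1.40, beside the changes of retinoid genes in SCC6. In SCC25 the sums were 12400 to 18800 and 14800 to 18200 CPM, and 2 of the 9 rose and 1 fell. The summed level of 7 fibroblast markers was higher with cetuximab in all 3 lines, at 12.4 to 21.9 against 32.7 to 90.4 CPM in SCC1, 2.57 to 4.83 against 8.7 to 115 CPM in SCC6 and 95.5 to 122 against 177 to 276 CPM in SCC25. In SCC1, and in SCC6 with PBS, COL1A1 alone of the 7 had a mean over 1 CPM. Of the 7, 3 were tested in SCC1 and 2 in SCC6, and all of those rose. DCN in SCC1 and PDGFRB in SCC6 were at 0.129 and 0.076 CPM with PBS. These 2 passed the filter on low counts through the cetuximab libraries, so that they rose is not read as a result. In SCC25, 3 of the 7 rose and 1 fell. Of 5 leukocyte markers, CD68 alone had a mean over 1 CPM in any group, and CD3E was under 0.1 CPM in every group. CD68, a lysosomal protein best known from macrophages, fell with cetuximab in all 3 lines, by 2.15 in SCC1, 1.89 in SCC6 and 0.31 in SCC25 on the log2 scale. The sum of the 5 was 17.8 to 48.3 CPM with PBS and 6.63 to 9.97 CPM with cetuximab in SCC1, 16.8 to 19.2 against 4.09 to 7.44 CPM in SCC6, and 166 to 231 against 145 to 174 CPM in SCC25. The part of these shifts in the values of the retinoid genes was not tested, and in bulk RNA fewer cells of a kind and less RNA per cell cannot be told apart.

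By the GENCODE annotation on GRCh37, all 9 are protein-coding genes. ALDH1A3 lies at chr15:101417919-101456831, CRABP2 at chr1:156669398-156675608, RARB at chr3:24729378-25639423, RARG at chr12:53604351-53626764 and RARRES1 at chr3:158414681-158450278. DHRS3 lies at chr1:12627939-12678216, DHRS9 at chr2:169921299-169952677, CYP26A1 at chr10:94833232-94837642 and CYP26B1 at chr2:72356367-72374991. RARRES1 overlaps the protein-coding gene MFSD1 on the opposite strand, and the strand setting of the quantification is not stated, so that reads of the 2 genes may have been mixed.

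The promoters of all 9 genes were searched for retinoic acid receptor motifs and for AP-1 motifs, since AP-1 lies downstream of EGFR signalling. The windows came from RefSeq on GRCh38.p14 and held 250 bases before to 50 bases after each start. The DR5 motif is a pair of hexamers in the same direction with 5 bases between them, where each hexamer reads NGGTCA or NGTTCA with A or G as its first base. The AP-1 motif reads TGANTCA. Both strands were searched. A DR5 motif was found in 31 of 35116 windows (0.0883%) and an AP-1 motif in 2707 (7.71%). These shares are per window, and RARB, DHRS3, DHRS9 and CYP26A1 each have more than 1 window. The number of genes with a motif is therefore not to be set against them. Among the 9 genes, DR5 was found for RARB and CYP26A1, at positions -53 to -37 and -90 to -74 of 1 of their windows, and AP-1 for DHRS3 and DHRS9, at positions -85 to -79 and -48 to -42 of 1 of theirs. These 4 genes are shown from position -120 to position -21, 5′ to 3′ in the direction of the gene, with single hexamers, DR5 and AP-1 motifs in capitals. No DR1 or DR2 motif, with 1 or 2 bases between the hexamers, was found for the 9 genes, and these were in 0.131% and 0.0399% of all windows. A match describes letters and does not show that a receptor binds there.
RARB (chr3:25428143-25428242, plus strand): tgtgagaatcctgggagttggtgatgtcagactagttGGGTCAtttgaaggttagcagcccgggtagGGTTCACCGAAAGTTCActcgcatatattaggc
DHRS3 (chr1:12596634-12596733, minus strand): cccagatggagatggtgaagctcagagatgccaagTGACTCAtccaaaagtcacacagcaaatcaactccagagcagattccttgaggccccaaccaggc
DHRS9 (chr2:169069443-169069542, plus strand): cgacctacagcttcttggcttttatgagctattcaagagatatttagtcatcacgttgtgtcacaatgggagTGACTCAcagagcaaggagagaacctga
CYP26A1 (chr10:93073773-93073872, plus strand): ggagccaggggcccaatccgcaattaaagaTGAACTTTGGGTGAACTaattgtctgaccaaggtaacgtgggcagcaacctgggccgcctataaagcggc

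The level with PBS set the lines apart. Per kb of exon, ALDH1A3 was the most highly expressed of the 9 genes in each line, at 78.4 ± 19.4 CPM per kb in SCC1, 318 ± 25.3 in SCC6 and 107 ± 19.5 in SCC25 (mean ± SD, n = 5). CRABP2 came next in SCC6 and SCC25. RARG came next in SCC1, within the spread of CRABP2, and DHRS3 and RARG were alike in SCC25, at 14.4 ± 3.68 and 14.3 ± 1.90 CPM per kb. The CPM per kb of CRABP2 was 2.98 ± 1.45 in SCC1, 21.8 ± 5.68 in SCC6 and 38.4 ± 14.2 in SCC25, and that of RARG was 3.70 ± 0.537 in SCC1 and 3.97 ± 0.952 in SCC6. CYP26B1 was at 0.0409 ± 0.0180 CPM per kb in SCC1, 0.864 ± 0.507 in SCC6 and 4.09 ± 0.493 in SCC25. CYP26A1 had 0 to 3 counts in each PBS library of SCC1 and 0 or 1 in SCC25, and 7 to 13 counts in SCC6. RARB had 1 to 3 counts in each PBS library of SCC6, where its level was 0.0642 ± 0.0284 CPM, against 0.637 ± 0.289 CPM in SCC1 and 0.729 ± 0.242 CPM in SCC25. CYP26B1, which degrades retinoic acid, thus had a higher level in SCC25 than in SCC6. The level of the receptor RARB was alike in SCC1 and SCC25, and its few counts in SCC6 make the difference from that line rough.

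**Figure D1:**
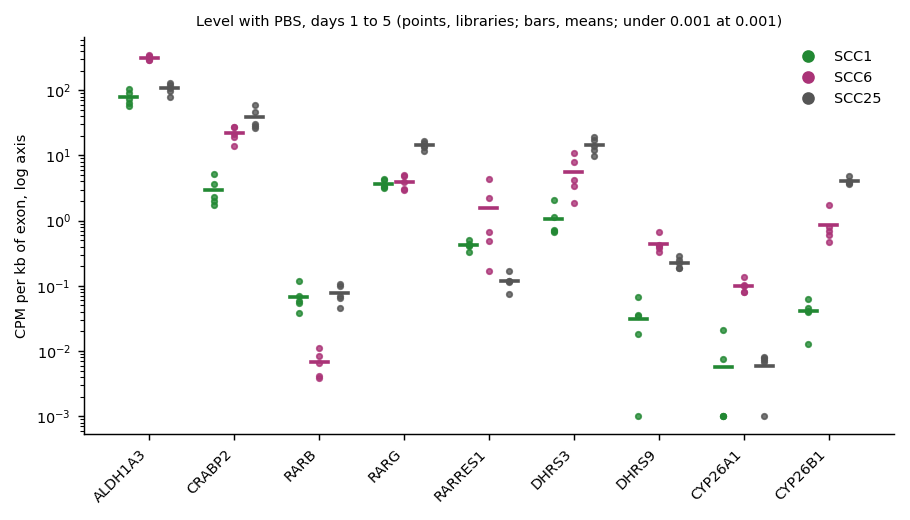
Level of each gene with PBS on days 1 to 5, in CPM per kb of exon on a log axis, in SCC1 (green), SCC6 (purple) and SCC25 (grey). Points are libraries and bars are means of 5 libraries. ALDH1A3 was highest in SCC6 and CYP26B1 in SCC25, and RARB was lowest in SCC6.

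With edgeR's quasi-likelihood test, Benjamini-Hochberg adjusted, the PBS level differed between lines for 8 of the 8 genes tested, and for 87.4% of all genes tested. CYP26A1 did not pass the filter on low counts in this fit. Between SCC6 and SCC1, 7 of 8 differed (all genes, 69.1%), and RARG did not pass (log2 difference 0.11 ± 0.15, SE, adjusted p = 0.52). Between SCC25 and SCC1, 7 of 8 differed (all genes, 68.4%), and RARB did not pass (0.20 ± 0.29, adjusted p = 0.56). Between SCC6 and SCC25, all 8 differed (all genes, 72.1%). The largest difference was that of CYP26B1, which was 6.65 ± 0.37 higher in SCC25 than in SCC1 on the log2 scale (adjusted p = 5.5e-11). In SCC1, CYP26B1 had 3 to 12 counts and DHRS9 0 to 10 in each PBS library, and RARB had 1 to 3 in SCC6. These genes passed the filter through the other lines, so the sizes of their differences are rough. That they count among the 8 is not read as a result. CRABP2 differed by -0.82 between SCC6 and SCC25 (adjusted p = 0.015), but by -0.61 (adjusted p = 0.058) without the SCC25 library of day 5. RARRES1 differed by -1.82 between SCC25 and SCC1 (adjusted p = 0.024), and by -1.70 (adjusted p = 0.052) without the SCC25 library of day 2. These shares read against most of the transcriptome, and 8 of 8 is near that background.

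Some of the genes also moved over the days with PBS alone. The slope per day was tested over the 6 PBS libraries of days 0 to 5 in each line. In SCC1, ALDH1A3 rose by 0.20 ± 0.02 per day on the log2 scale (SE, adjusted p = 0.0053) and CRABP2 by 0.34 ± 0.06 (adjusted p = 0.03), so that 2 of 7 tested genes had a trend, against 2.49% of all genes. The number of all genes with a trend in SCC1, 474, was 24 to 1575 with single libraries left out, lowest without day 1 and highest without day 5. The slope of CRABP2 was 0.38 (adjusted p = 0.1) without day 0, 0.37 (adjusted p = 0.11) without day 1 and 0.34 (adjusted p = 0.093) without day 4. In SCC6, 4 of 8 tested genes had a trend, against 32.7% of all genes. RARRES1 rose by 1.17 ± 0.08 per day (adjusted p = 0.00014), DHRS3 by 0.67 ± 0.04 (adjusted p = 0.00014) and CRABP2 by 0.34 ± 0.06 (adjusted p = 0.0034). DHRS9 had a slope of -0.39 ± 0.13 (adjusted p = 0.046) that rested on the library of day 0. Its level there was 7.25 CPM, against 1.25 to 2.47 CPM on days 1 to 5, and without that library the slope was 0.02 (adjusted p = 0.92). The slope of DHRS9 also lost its call without day 3 (-0.40, adjusted p = 0.055), day 4 (-0.37, adjusted p = 0.12) or day 5 (-0.50, adjusted p = 0.074). In SCC25, 3 of 8 tested genes had a trend, against 10.7% of all genes. CRABP2 rose by 0.28 ± 0.03 per day (adjusted p = 8.4e-05), DHRS3 by 0.27 ± 0.02 (adjusted p = 9.4e-06) and RARG by 0.12 ± 0.02 (adjusted p = 0.0011). ALDH1A3 had a slope of -0.09 in SCC25 (adjusted p = 0.099), which passed without day 0 (-0.16, adjusted p = 0.0034). CRABP2, the carrier of retinoic acid, therefore rose with time in culture in all 3 lines by this test, with the limit given for SCC1. The PBS libraries of SCC1 and of SCC6 each came from 2 flow cells, which held different days, and those of SCC25 from 1.

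**Figure D2:**
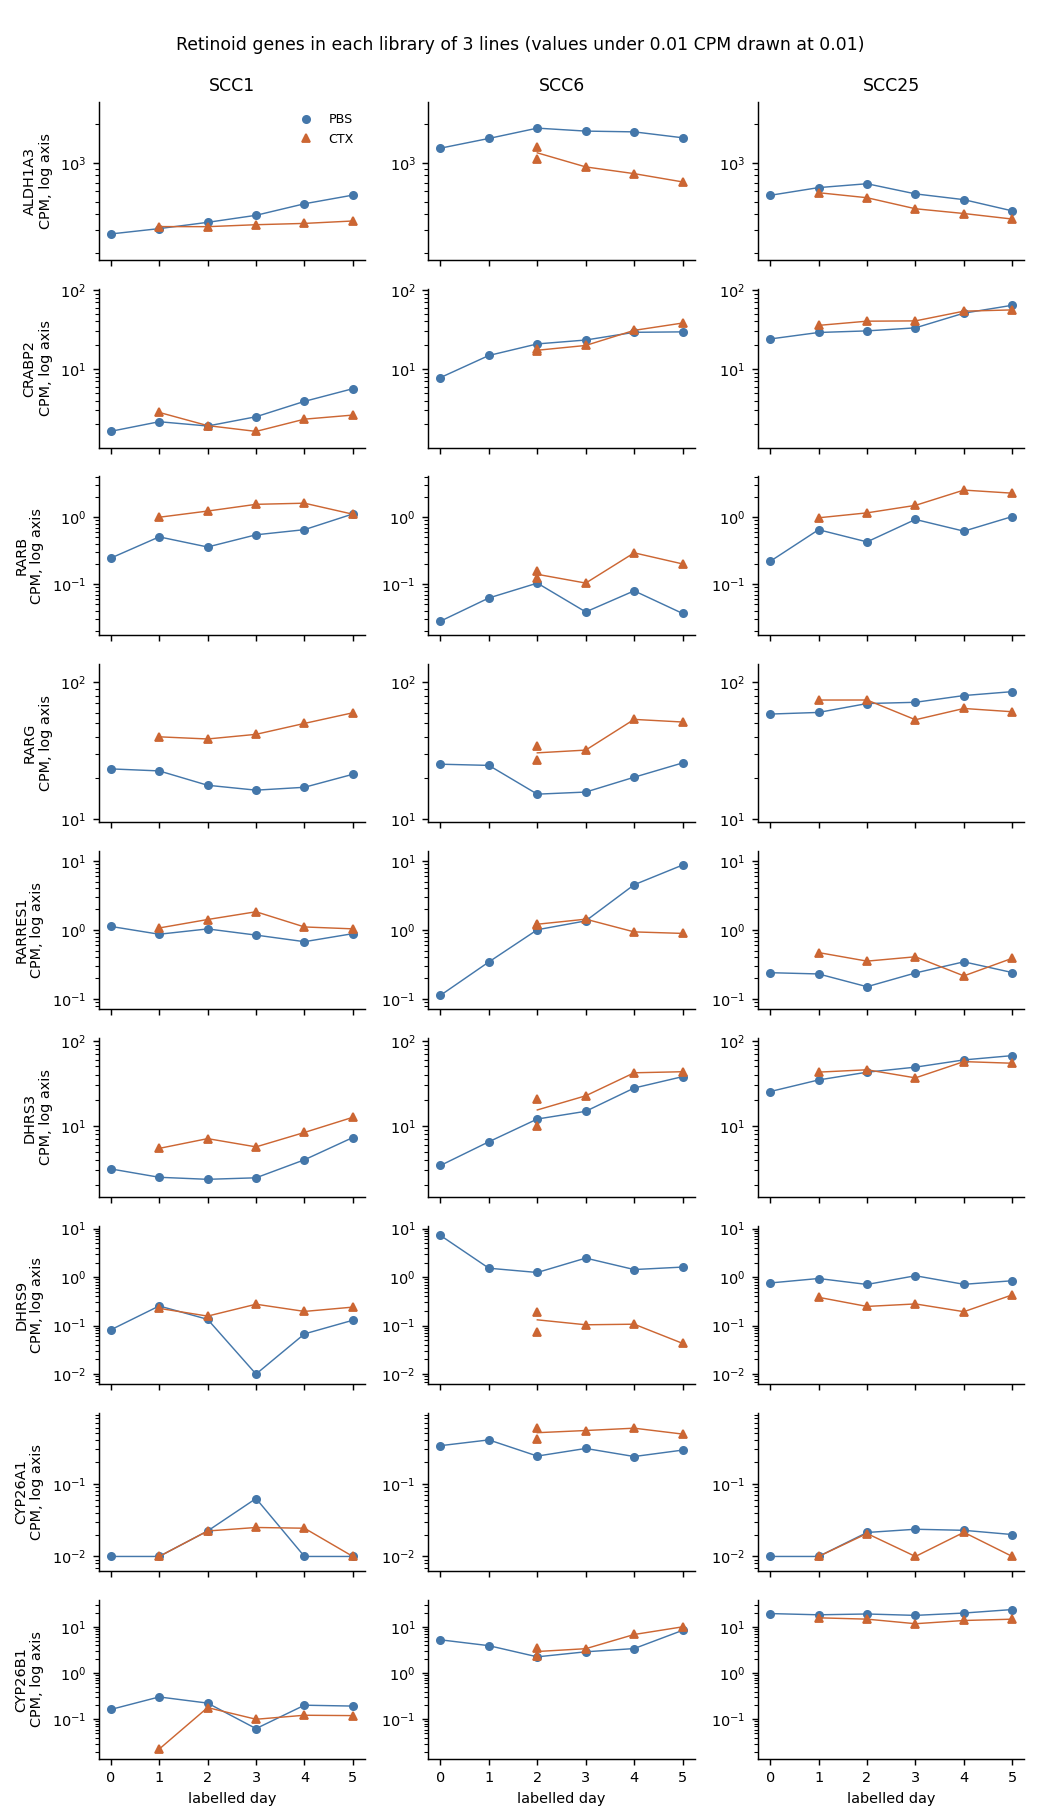
CPM of each gene (rows) in every library of SCC1, SCC6 and SCC25 (columns), on log axes, by the day the labels give. Blue circles are PBS and orange triangles cetuximab, lines join the daily means, and values under 0.01 CPM are drawn at 0.01. RARG with cetuximab lies above PBS in SCC1 and SCC6, DHRS9 lies below PBS in SCC6 and SCC25, and RARRES1 climbs with PBS in SCC6.

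Cetuximab was compared with PBS within each line over days 1 to 5. In SCC1, 4 of the 6 genes tested were called, all 4 of them higher with cetuximab, against 44.8% of all genes called, 22.7% higher and 22.1% lower. In SCC6, 4 of 8 were called, 2 higher and 2 lower, against 30.1% of all genes, 15.6% higher and 14.6% lower. In SCC25, 3 of 8 were called, 1 higher and 2 lower, against 18.3% of all genes, 8.8% higher and 9.5% lower. Of the genes called in SCC25, 48.1% were higher after TMM scaling and 65.0% with library totals alone. DHRS9, CYP26A1 and CYP26B1 in SCC1, RARB in SCC6 and CYP26A1 in SCC25 did not pass the filter on low counts. The change common to the lines was tested with all 30 libraries of days 1 to 5. It called 4 of 9 genes, RARB and RARG higher and ALDH1A3 and DHRS9 lower, against 41.5% of all genes. This fit gives 1 change for all lines, so a call does not show a change in each line, and RARG was at -0.17 in SCC25. RARB entered the fit through SCC1 and SCC25, and DHRS9 through SCC6 and SCC25. In a second fit of these libraries, with terms for the change in each line, the change differed by line for 3 of 9 genes, against 26.1% of all genes. DHRS9 is among the 3 and rests in part on few counts in SCC1. With day as a block and 2a as day 1, the count of genes that differed was 5, and with 2b as day 1 it was 4.

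**Figure D3:**
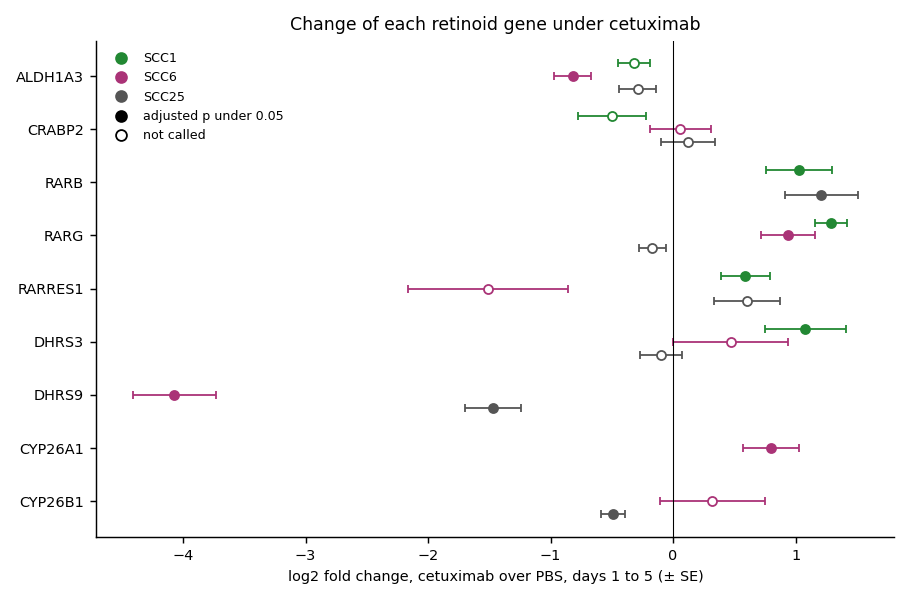
Log2 fold change of each gene, cetuximab over PBS on days 1 to 5, ± SE, in each line where the gene passed the filter on low counts. Filled points have an adjusted p under 0.05. DHRS9 fell by 4.07 in SCC6 and by 1.47 in SCC25, and RARB, RARG and DHRS3 rose by 1.03 to 1.29 in SCC1.

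Of the enzymes that interconvert retinol and retinaldehyde, DHRS9 fell and DHRS3 rose, in different lines. In SCC6, DHRS9 was at 1.53, 1.25, 2.47, 1.43 and 1.61 CPM on days 1 to 5 with PBS. With cetuximab it was at 0.0742 and 0.189 CPM in libraries 2a and 2b, and at 0.104, 0.107 and 0.0430 CPM on days 3 to 5. All 5 cetuximab libraries were below all 5 PBS libraries, with 3 to 8 counts each against 36 to 64. DHRS9 passed the filter on low counts in SCC6 through the PBS libraries, so the size of its change is rough. The log2 fold change was -4.07 ± 0.34 (SE, edgeR's quasi-likelihood test, adjusted p = 1.4e-05), and it was between -4.73 and -3.81 under all 18 alternatives run, with every adjusted p at or under 0.00038. In SCC25, DHRS9 was at 0.937, 0.707, 1.07, 0.711 and 0.842 CPM with PBS and at 0.384, 0.249, 0.280, 0.194 and 0.431 CPM with cetuximab. Here too the groups did not overlap, and cetuximab was lower on 5 of 5 days (-1.47 ± 0.23, adjusted p = 0.0015). Within the flow cell that held both treatments, the change in SCC25 was -1.42 ± 0.32 (adjusted p = 0.023). In SCC1, DHRS9 had 0 to 10 counts with PBS and 7 to 11 with cetuximab, and was not tested there.

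The fall of DHRS9 differed between SCC6 and SCC25 by edgeR's quasi-likelihood test. The log2 fold change was lower by 2.60 ± 0.50 in SCC6 than in SCC25 (adjusted p = 0.00048). DHRS9 did not pass the filter on low counts in SCC1 and entered the fit over the 3 lines through SCC6 and SCC25. The test over the 3 lines (adjusted p = 5.6e-07) also takes in SCC1, so this test and the differences from SCC1 are not read.

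DHRS3 was at 2.49, 2.36, 2.46, 4.00 and 7.31 CPM on days 1 to 5 with PBS in SCC1, and at 5.45, 7.09, 5.67, 8.39 and 12.6 CPM with cetuximab. Cetuximab was higher on 5 of 5 days, while the groups overlapped through the PBS library of day 5. The log2 fold change was 1.08 ± 0.33 (adjusted p = 0.018), and 0.83 (adjusted p = 0.052) without the cetuximab library of day 5. Within the flow cell that held both treatments in SCC1, where PBS of day 5 is the only control, it was 0.12 ± 0.40 (adjusted p = 0.86). In SCC6, DHRS3 was at 6.52 to 38.0 CPM with PBS and at 9.99 to 43.4 CPM with cetuximab, with a log2 fold change of 0.47 ± 0.47 (adjusted p = 0.48). With day as a block and 2b as day 1, the same change was 0.54 ± 0.11 (adjusted p = 0.015), and with 2a as day 1 it was 0.53 ± 0.25 (adjusted p = 0.15). In SCC25 the change was -0.10 ± 0.17 (adjusted p = 0.72). The difference between lines had an adjusted p of 0.25 without the day block, and of 0.0081 (2a as day 1) or 0.00014 (2b as day 1) with it.

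ALDH1A3, which makes retinoic acid, fell in SCC6. It was at 1548, 1861, 1765, 1741 and 1567 CPM on days 1 to 5 with PBS. With cetuximab it was at 1071 and 1323 CPM in 2a and 2b, and at 931, 825 and 712 CPM on days 3 to 5. No cetuximab library reached the lowest PBS library (-0.82 ± 0.15, adjusted p = 0.0021, 18 of 18 alternatives called). Within flow cells, the change in SCC6 was -0.66 ± 0.12 (adjusted p = 0.0018). In SCC1 the PBS values rose from 309 CPM on day 1 to 562 CPM on day 5, while the cetuximab values stayed between 320 and 354 CPM. The change there was -0.32 ± 0.13 (adjusted p = 0.066), which did not pass. It passed with day as a block (-0.29 ± 0.09, adjusted p = 0.036), within the flow cell (-0.74 ± 0.16, adjusted p = 0.0071), with DESeq2 (-0.33, adjusted p = 0.04) and without the filter on low counts (-0.33, adjusted p = 0.044). Without the PBS library of day 1 or of day 2 it also passed (-0.41, adjusted p = 0.013, and -0.39, adjusted p = 0.037). In SCC25, ALDH1A3 was at 643, 689, 575, 519 and 424 CPM with PBS and at 587, 537, 441, 405 and 367 CPM with cetuximab. Cetuximab was lower on 5 of 5 days, and the change was -0.29 ± 0.15 (adjusted p = 0.19) without and -0.29 ± 0.05 (adjusted p = 0.0043) with day as a block. Within the SCC25 flow cell, with cetuximab of days 1 and 2 only, it was -0.02 ± 0.15 (adjusted p = 0.96). The difference between lines had an adjusted p of 0.13, and of 0.013 (2a as day 1) or 0.023 (2b as day 1) with the day block. It had an adjusted p of 0.032 without library 2b and of 0.039 with the flow cell as a covariate.

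CRABP2, the retinoic acid carrier, was not called in any line over days 1 to 5. In SCC1 it was at 2.16, 1.91, 2.50, 3.91 and 5.66 CPM with PBS and at 2.84, 1.93, 1.63, 2.33 and 2.62 CPM with cetuximab. The rise over the days with PBS was not matched with cetuximab, and the change was -0.50 ± 0.28 (adjusted p = 0.17). Within the SCC1 flow cell, against PBS of day 5, it was -1.30 ± 0.33 (adjusted p = 0.015). In SCC6 CRABP2 ranged from 14.9 to 29.6 CPM with PBS and from 16.7 to 38.2 CPM with cetuximab (0.06 ± 0.25, adjusted p = 0.89). Within the SCC6 flow cell that held both treatments its sign turned, at -0.52 ± 0.14 (adjusted p = 0.014). There cetuximab 2a, 2b and day 3 stood against PBS of days 2 to 5, over which CRABP2 rose with PBS. This value thus mixes treatment and day. In SCC25 CRABP2 ranged from 29.0 to 64.1 CPM and from 35.7 to 56.0 CPM (0.12 ± 0.22, adjusted p = 0.75). Over the 3 lines the change was -0.08 (adjusted p = 0.74), and within flow cells it was -0.51 (adjusted p = 0.019), with the same limit.

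RARG, the retinoic acid receptor with the highest level of the 2 in all 3 lines, rose in SCC1 and SCC6. In SCC1 it was at 22.5, 17.7, 16.3, 17.1 and 21.3 CPM with PBS and at 40.0, 38.5, 41.7, 50.1 and 59.9 CPM with cetuximab. The groups were well apart, and the log2 fold change was 1.29 ± 0.13 (adjusted p = 1.2e-05). In SCC6 it was at 24.7, 15.2, 15.8, 20.3 and 25.8 CPM with PBS. With cetuximab it was at 34.1 and 26.9 CPM in 2a and 2b and at 32.0, 53.6 and 51.2 CPM on days 3 to 5. These groups did not overlap either, though 2b lay close to the highest PBS value, and the change was 0.94 ± 0.22 (adjusted p = 0.0071). The change was called under all 17 alternatives in SCC1 and all 18 in SCC6, with within-flow-cell values of 1.13 ± 0.25 (adjusted p = 0.0086) and 0.67 ± 0.16 (adjusted p = 0.0082). In SCC25, RARG was at 60.2, 69.9, 71.4, 80.0 and 85.4 CPM with PBS and at 74.2, 74.2, 53.2, 64.4 and 60.9 CPM with cetuximab. There it was higher with cetuximab on days 1 and 2 and lower on days 3 to 5, and the change was -0.17 ± 0.11 (adjusted p = 0.31). The cetuximab libraries of days 3 to 5 were on another flow cell than all PBS libraries of SCC25, and within the flow cell of days 1 and 2 the change was 0.02 ± 0.12 (adjusted p = 0.95).

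The change of RARG differed between lines (adjusted p = 9.4e-05). It was higher by 1.13 ± 0.24 in SCC6 than in SCC25 (adjusted p = 0.0015), and it was -1.44 ± 0.24 for SCC25 minus SCC1 (adjusted p = 0.00015). For SCC6 minus SCC1 the difference was -0.32 ± 0.24 (adjusted p = 0.41), which did not pass. By pairs of lines, 2 of 9 genes differed between SCC6 and SCC1, DHRS9 and RARRES1, against 19.3% of all genes. Between SCC25 and SCC1, 2 of 9 differed, DHRS9 and RARG, against 8.52%. In both pairs DHRS9 rests on the few counts of SCC1, and 1 gene each is left without it. Between SCC6 and SCC25, 3 of 9 differed, DHRS9, RARG and RARRES1, against 17.5%.

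RARB, the retinoic acid-inducible receptor whose promoter window above holds a DR5 motif, was low in all 3 lines and higher with cetuximab. In SCC1 it was at 0.509, 0.359, 0.546, 0.652 and 1.12 CPM with PBS and at 0.998, 1.24, 1.56, 1.62 and 1.11 CPM with cetuximab, or 16 to 52 counts against 44 to 66. Cetuximab was higher on 4 of 5 days, all but day 5, and the change was 1.03 ± 0.27 (adjusted p = 0.0076). In SCC25 RARB was at 0.650, 0.428, 0.925, 0.619 and 1.02 CPM with PBS and at 0.980, 1.16, 1.50, 2.54 and 2.28 CPM with cetuximab. It was higher on 5 of 5 days, with a slight overlap between groups, and the change was 1.21 ± 0.30 (adjusted p = 0.017). In SCC6 each PBS library had 1 to 3 counts and each cetuximab library 4 to 22, so RARB was not tested there, although on the CPM scale all 5 cetuximab libraries were above all 5 PBS libraries. Libraries 2a, 2b and day 3 had 4 or 5 counts, and days 4 and 5, from the 2 deepest libraries, had 22 and 14. In the fit over the 3 lines the change was 1.17 ± 0.19 (adjusted p = 1e-05), with an adjusted p of 0.82 for a difference between lines. RARB entered these fits through SCC1 and SCC25, and with so few counts in SCC6 neither value is read for SCC6. Within flow cells the change of RARB was 0.23 ± 0.34 in SCC1 (adjusted p = 0.66), 0.55 ± 0.31 in SCC25 (adjusted p = 0.31) and 0.49 over the 3 lines (adjusted p = 0.063), and was not called.

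RARRES1, the retinoid-induced gene, went apart between lines. In SCC6 it climbed with PBS, from 0.112 CPM on day 0 to 0.343, 1.00, 1.35, 4.51 and 8.72 CPM on days 1 to 5. With cetuximab it was at 1.19 and 1.23 CPM in 2a and 2b and at 1.43, 0.935 and 0.889 CPM on days 3 to 5. Cetuximab thus lay among the PBS values of days 2 and 3 and under those of days 4 and 5. Over days 1 to 5 the change was -1.51 ± 0.65 (adjusted p = 0.099), and -1.81 (adjusted p = 0.02) without the PBS library of day 1. It was -0.72 (adjusted p = 0.36) without the PBS library of day 5, and -0.86 with day as a block (adjusted p = 0.42 with 2a and 0.44 with 2b as day 1). In SCC1, RARRES1 was at 0.865, 1.03, 0.840, 0.674 and 0.882 CPM with PBS and at 1.07, 1.41, 1.83, 1.10 and 1.04 CPM with cetuximab. The groups just failed to overlap, and the change was 0.59 ± 0.20 (adjusted p = 0.026). It did not pass without the filter on low counts (0.58, adjusted p = 0.052), or without PBS of day 3 (0.57, adjusted p = 0.056), PBS of day 4 (0.51, adjusted p = 0.067), cetuximab of day 2 (0.55, adjusted p = 0.058) or cetuximab of day 3 (0.43, adjusted p = 0.071), and within the flow cell it was 0.56 ± 0.36 (adjusted p = 0.29). In SCC25 RARRES1 had 7 to 15 counts with PBS and 10 to 22 with cetuximab (0.60 ± 0.27, adjusted p = 0.14). The difference between lines had an adjusted p of 0.02, of 0.2 with the day block and of 0.1 without the SCC6 PBS library of day 5. By pairs it was -2.09 ± 0.64 for SCC6 minus SCC1 (adjusted p = 0.019) and -2.11 ± 0.73 for SCC6 minus SCC25 (adjusted p = 0.043).

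**Figure D4:**
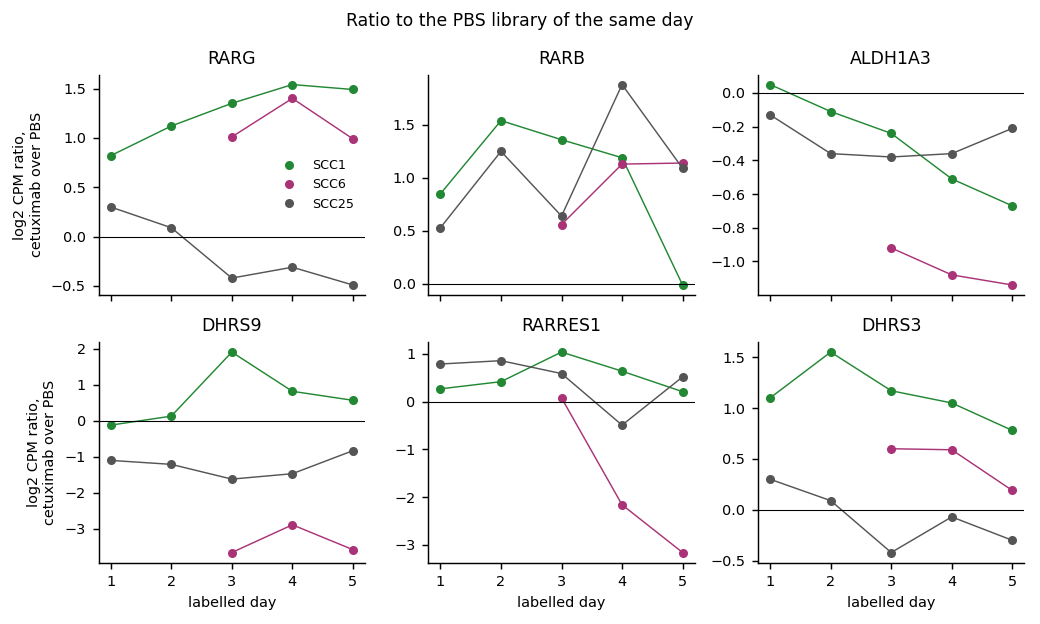
Log2 ratio of CPM (with 0.1 CPM added to each) of the cetuximab library over the PBS library of the same labelled day, for 6 genes in SCC1 (green), SCC6 (purple, days 3 to 5 only) and SCC25 (grey). RARG is above 0 in SCC1 and SCC6 on each day shown, DHRS9 is below 0 in SCC6 and SCC25, and RARRES1 in SCC6 goes from 0.08 on day 3 to -3.16 on day 5. The DHRS9 point of SCC1 on day 3 rests on a PBS library with 0 counts.

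The enzymes that degrade retinoic acid were near the limit of detection in part of the lines. CYP26A1, whose promoter window above also holds a DR5 motif, was at 0.405, 0.242, 0.309, 0.239 and 0.293 CPM on days 1 to 5 with PBS in SCC6. With cetuximab it was at 0.420 and 0.599 CPM in 2a and 2b and at 0.546, 0.588 and 0.488 CPM on days 3 to 5. The groups did not overlap, with 2a close to the highest PBS value. The change was 0.80 ± 0.23 (adjusted p = 0.019), from 7 to 13 counts a library with PBS and 17 to 44 with cetuximab. It did not pass with DESeq2 (0.80, adjusted p = 0.057), without the filter on low counts (0.82, adjusted p = 0.086) or with day as a block and 2a as day 1 (0.81, adjusted p = 0.062), and it passed with 2b as day 1 (0.82, adjusted p = 0.035). It also did not pass without PBS of day 2 (0.73, adjusted p = 0.06), PBS of day 4 (0.72, adjusted p = 0.056) or cetuximab of day 4 (0.76, adjusted p = 0.054). CYP26A1 had 0 or 1 counts in each cetuximab library of SCC1 and SCC25, and no change was detectable there at this depth.

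CYP26B1 fell in SCC25, the line with its highest level. It was at 18.3, 19.0, 17.8, 20.0 and 23.8 CPM with PBS and at 15.7, 14.7, 11.7, 13.8 and 14.7 CPM with cetuximab. The groups did not overlap, cetuximab was lower on 5 of 5 days, and the change was -0.49 ± 0.10 (adjusted p = 0.0066). Within the flow cell, with cetuximab of days 1 and 2 only, it was -0.37 ± 0.12 (adjusted p = 0.091). In SCC6 CYP26B1 was at 3.93, 2.25, 2.90, 3.40 and 8.43 CPM with PBS and at 3.51, 2.36, 3.38, 6.86 and 10.0 CPM with cetuximab, in the order 2a, 2b and days 3 to 5. Both groups were highest on day 5, and the change was 0.32 ± 0.43 (adjusted p = 0.61). In SCC1, CYP26B1 had 3 to 12 counts with PBS and 1 to 8 with cetuximab, and was not tested. The difference between lines had an adjusted p of 0.21. It passed with the day block and 2a as day 1 (adjusted p = 0.035) and without the SCC6 PBS library of day 5 (adjusted p = 0.025). CYP26B1 entered this fit through SCC6 and SCC25, and SCC1 added few counts.

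Whether the change depended on time was tested by comparing days 1 to 3 with days 4 and 5, with 3 and 2 libraries per treatment. In SCC1, 3 of 7 tested genes were called on days 1 to 3 (all genes, 29.6%) and 4 of 7 on days 4 and 5 (all genes, 29.9%). RARG was called in both, at 1.08 ± 0.13 and 1.53 ± 0.16, as was DHRS3, at 1.30 ± 0.23 and 0.90 ± 0.27. RARB was at 1.40 ± 0.30 on days 1 to 3, where it was called, and at 0.63 ± 0.34 on days 4 and 5, where it was not. ALDH1A3 and CRABP2 were called on days 4 and 5 (-0.58 ± 0.10 and -0.94 ± 0.27) and not on days 1 to 3 (-0.12 ± 0.08 and -0.05 ± 0.23). On days 4 and 5, CRABP2 did not pass without PBS of day 5 (-0.66, adjusted p = 0.15), cetuximab of day 4 (-0.85, adjusted p = 0.12) or cetuximab of day 5 (-1.03, adjusted p = 0.075), nor DHRS3 without PBS of day 4 (0.54, adjusted p = 0.16) or cetuximab of day 5 (0.57, adjusted p = 0.23). Without PBS of day 5, DHRS3 was at 1.39 (adjusted p = 0.0043). In SCC6, 3 of 8 were called on days 1 to 3 (all genes, 20.3%), ALDH1A3, DHRS9 and RARG, and 4 of 8 on days 4 and 5 (all genes, 37.8%), the same 3 and RARRES1. RARRES1 changed by -2.86 ± 0.45 on days 4 and 5 (adjusted p = 0.0011). On days 1 to 3 it was at 0.51 ± 0.41 (adjusted p = 0.42). DHRS3 in SCC6 was at 0.65 ± 0.32 on days 1 to 3 (adjusted p = 0.18), and it passed with day as a block and 2b as day 1 (0.64, adjusted p = 0.018), without the filter on low counts (0.68, adjusted p = 0.00051) and without library 2b (0.94, adjusted p = 0.038). RARG in SCC6 was at 0.70 ± 0.20 on days 1 to 3 (adjusted p = 0.031). That call was lost with day as a block and 2b as day 1 (0.73, adjusted p = 0.06), and without PBS of day 2 (0.56, adjusted p = 0.1) or day 3 (0.58, adjusted p = 0.092), library 2a (0.64, adjusted p = 0.079) or cetuximab of day 3 (0.70, adjusted p = 0.06). In SCC25, 1 of 8 was called on days 1 to 3 (all genes, 7.84%), DHRS9, and 1 of 8 on days 4 and 5 (all genes, 2.71%), RARB. DHRS9 was at -1.55 ± 0.31 on days 1 to 3 (adjusted p = 0.016) and lost its call without PBS of day 1 (adjusted p = 0.061) or day 3 (adjusted p = 0.054) or cetuximab of day 2 (adjusted p = 0.06). RARB was at 1.53 ± 0.34 on days 4 and 5 (adjusted p = 0.044) and lost its call when any of 7 libraries was left out, with changes of 1.22 to 1.96. Without cetuximab of day 3, RARG (-0.41, adjusted p = 0.0067), DHRS9 (-1.32, adjusted p = 0.04) and CYP26B1 (-0.63, adjusted p = 0.0016) were called on days 4 and 5 as well. With single libraries left out, the number of all genes called in SCC25 was 528 to 3384 around 1626 on days 1 to 3, lowest without PBS of day 2, and 23 to 3199 around 562 on days 4 and 5, lowest without cetuximab of day 5. Both were highest without cetuximab of day 3. Of the 8 genes, 0 to 1 were then called on days 1 to 3 and 0 to 4 on days 4 and 5. With day as a block, ALDH1A3 (-0.28, adjusted p = 0.039) and CRABP2 (0.34, adjusted p = 0.033) were also called in SCC25 on days 1 to 3, as was CYP26B1 in both periods (-0.38 with adjusted p = 0.048, then -0.62 with adjusted p = 0.035).

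The later change was not called as different from the earlier one for any of the 9 genes by edgeR's quasi-likelihood test, nor for any other gene (0% in each line). At an unadjusted p under 0.05, 1458 genes differed in SCC1, 5626 in SCC6 and 599 in SCC25, and DESeq2 called 31, 2838 and 3. RARRES1 in SCC6 came closest, with a log2 fold change that was lower by 3.36 ± 0.60 on days 4 and 5 than on days 1 to 3 (adjusted p = 0.093). It was called with DESeq2 (-3.39, adjusted p = 5.7e-05), without the filter on low counts (-3.35, adjusted p = 2.1e-11), without PBS of day 1 (-2.97, adjusted p = 0.012) and without PBS of day 3 (-3.76, adjusted p = 0.048). A call in 1 period alone does not show that the periods differ.

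The other genes of retinoid biology were counted in lists set by function. Their counts stand beside the shares of all genes called, which were 22.7% higher and 22.1% lower for SCC1, 15.6% and 14.6% for SCC6 and 8.8% and 9.5% for SCC25. Of 10 genes for uptake, binding and storage, 1 rose and 1 fell of 5 tested in SCC1, 2 rose and 2 fell of 7 in SCC6, and 1 of 7, FABP5, fell in SCC25. Their median log2 fold change was -0.12, -0.06 and -0.01, beside 0.02, 0.00 and 0.01 for all genes tested. In SCC6, LRAT, which esterifies retinol for storage, went from 21.6 ± 3.44 to 2.84 ± 1.07 CPM (-2.96 ± 0.25, adjusted p = 1.5e-05), and FABP5, a fatty acid and retinoic acid binding protein, from 8.18 ± 1.37 to 3.56 ± 1.15 CPM (-1.23 ± 0.22, adjusted p = 0.0019). The retinol-binding protein RBP7 rose in SCC6, from 0.729 ± 0.0692 to 2.11 ± 0.611 CPM (1.51 ± 0.21, adjusted p = 0.00039). In SCC6, DHRS9, ALDH1A3 and LRAT thus fell in the same libraries, but the steps they belong to did not fall as a whole. Of the 7 genes tested for uptake, binding and storage, 2 rose and 2 fell. Of the 10 other enzymes of retinol and retinaldehyde tested in SCC6, 1 fell and 0 rose.

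Of 17 other enzymes of retinol and retinaldehyde, 6 of 12 tested rose in SCC1 and none fell (all genes, 22.7% and 22.1%), with a median of 0.36. AKR1B10, a retinaldehyde reductase, rose there from 0.404 ± 0.0934 to 7.32 ± 2.21 CPM (4.19 ± 0.27, adjusted p = 7e-07), RDH16, a retinol dehydrogenase, by 2.21 ± 0.31 (adjusted p = 9.6e-05) and BCO2, a carotenoid-cleaving enzyme, by 1.82 ± 0.32 (adjusted p = 5e-04). In SCC6, 1 of 10 fell, RDH10 (-0.48 ± 0.14, adjusted p = 0.022), with a median of 0.08. In SCC25, 1 of 12 rose, ADH7, an alcohol dehydrogenase that oxidises retinol, from 0.718 ± 0.363 to 3.66 ± 1.34 CPM (2.33 ± 0.34, adjusted p = 0.001), with a median of 0.09. Of 5 genes for synthesis and clearance of retinoic acid, 1 of 2 tested rose in SCC1, ALDH1A2, from 0.179 ± 0.0796 to 0.374 ± 0.118 CPM (1.08 ± 0.34, adjusted p = 0.021). None of 2 passed in SCC6 and none of 3 in SCC25, with medians of 0.53, 0.38 and 0.06 in the 3 lines. ALDH1A2 passed the filter on low counts in SCC1 mainly through the cetuximab libraries, so that it rose is not read as a result.

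Of 10 other receptors and cofactors, 4 rose and 2 fell of 9 tested in SCC1, 3 rose and 1 fell of 9 in SCC6, and none of 10 passed in SCC25, with medians of -0.03, 0.35 and 0.00. RXRA, a partner of the retinoic acid receptors, rose in SCC1 from 58.4 ± 7.89 to 108 ± 7.87 CPM (0.90 ± 0.09, adjusted p = 9.5e-06). The orphan receptor NR2F2 rose there by 1.05 ± 0.09 (adjusted p = 3.2e-06), and the corepressor NRIP1 fell by 1.13 ± 0.19 (adjusted p = 0.00034). RARA, the third retinoic acid receptor, rose in SCC6 from 8.54 ± 2.50 to 17.4 ± 8.64 CPM (1.01 ± 0.32, adjusted p = 0.031).

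Of 12 genes known to respond to retinoic acid, 4 rose and 4 fell of 10 tested in SCC1 (all genes, 22.7% and 22.1%), 3 rose and 2 fell of 8 in SCC6 (15.6% and 14.6%), and 3 of 10 rose and none fell in SCC25 (8.8% and 9.5%), with medians of 0.10, 0.31 and 0.25. In SCC1, RARRES3, a retinoid-inducible gene, went from 4.98 ± 1.91 to 25.7 ± 9.56 CPM (2.38 ± 0.29, adjusted p = 3.9e-05), while the transglutaminase TGM2 went from 107 ± 28.6 to 30.7 ± 6.60 CPM (-1.79 ± 0.20, adjusted p = 1.8e-05). BTG2, an antiproliferative gene, rose in all 3 lines, by 1.44 ± 0.15, 0.89 ± 0.16 and 0.33 ± 0.07 in SCC1, SCC6 and SCC25 (adjusted p = 1e-05, 0.0018 and 0.007). Of 8 keratinocyte genes known to be lowered by retinoids, FLG and TGM1 rose in SCC1 among 4 tested, by 2.14 ± 0.37 (adjusted p = 0.00045) and 1.96 ± 0.29 (adjusted p = 0.00016). In SCC6, FLG rose (1.68 ± 0.27, adjusted p = 0.00086) and SPRR1B fell (-5.15 ± 0.82, adjusted p = 0.00082) among 5, and in SCC25 both FLG and SPRR1B fell among 6, by 0.47 ± 0.15 (adjusted p = 0.047) and 1.25 ± 0.24 (adjusted p = 0.0049). The medians were 1.35, 0.03 and -0.01. With PBS, FLG was at 0.132 CPM in SCC1 and 0.237 CPM in SCC6, and it passed the filter on low counts there mainly through the cetuximab libraries. Its rise in SCC1 and SCC6 is therefore not read as a result. Of 4 keratins known to be raised by retinoids, 3 of 3 tested rose in SCC1, none of 4 passed in SCC25, and 2 of 3 fell in SCC6, with medians of 2.48, 0.60 and -0.93. KRT13 rose in SCC1 by 5.63 ± 0.60 (adjusted p = 1.4e-05), KRT15 by 2.48 ± 0.21 (adjusted p = 3e-06) and KRT19 by 1.18 ± 0.13 (adjusted p = 1.3e-05). In SCC6, KRT15 and KRT19 fell by 1.20 ± 0.14 (adjusted p = 0.00013) and 0.93 ± 0.13 (adjusted p = 0.00045). FLG aside, the calls in SCC1 thus held members of both lists. TGM1 is among genes known to be lowered and 3 keratins are among genes known to be raised. They rose beside the rise of the squamous markers given above.

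The genes most like the retinoid genes in their pattern were found over the 30 libraries of days 1 to 5, by Pearson's r of log2 CPM after the mean of each line was removed, among the 9917 genes whose mean log2 CPM was 3 or more. The libraries share lines, days and flow cells, and the values are a description. RARG was most like MTSS1L (r = 0.96), BCAM (0.95) and SLC6A9 (0.95). ALDH1A3 was most like ADGRF1 (0.91), ARHGAP18 (0.88) and TMCC3 (0.88), DHRS3 was most like R3HDM2 (0.90), BTN3A2 (0.87) and PSMB8 (0.87), and CRABP2 was most like SP110 (0.70), OAS1 (0.69) and UCA1 (0.69). The other 5 retinoid genes had lower means.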

How the data were processed

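Bulk RNA of SCC1, SCC6 and SCC25 was sequenced from PBS and 100 nM cetuximab cultures. The deposited values are estimated counts per gene symbol, which the authors inferred with Salmon (version 0.8.2 in the submitters' processing notes) and summed with tximport, without normalisation between libraries. The notes name the builds hg19 and GRCh37, and the annotation is not given in the sources used here. Of the values above 0, 29.2% are whole numbers (tolerance 0).

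After rounding, the counts were fitted with edgeR 4.0.16 (R 4.3.3), with DESeq2 1.42.0 as an alternative. The filter on low counts was filterByExpr, the scaling was TMM, and each fit across all genes used edgeR's two-sided quasi-likelihood test with Benjamini-Hochberg adjustment. A gene with an adjusted p under 0.05 is called. Rounding and the filter mainly touch genes with few counts, here CYP26A1, RARB, DHRS9 and RARRES1. CPM use the TMM factors, and levels per kb were divided by the union exon length of GENCODE on GRCh37. The fits were tested on simulated counts with known changes, with no effect of the flow cell and no other drift over days. That test therefore does not cover the use of days as replicates.

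The fits compared treatments within each line (5 against 5 libraries, days 1 to 5), over the 3 lines, between lines and between days 1 to 3 and days 4 and 5. PBS levels were compared between lines and PBS slopes tested over days 0 to 5. Alternatives were DESeq2, DESeq2's size factors, library totals alone, no filter, day as a block, the flow cell as a covariate, day 0 added or left out, a size threshold of 1 on the log2 scale, and each library left out in turn. The paper names DESeq2 without a design.

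Libraries of 1 line and day share their label of time, which is where the pairing comes from. Across genes, deviations from the treatment means correlated between the treatments of a day at r = 0.12 to 0.40 in SCC1 and 0.23 to 0.59 in SCC25. In SCC6 r was 0.59, -0.19 and 0.00 on days 3 to 5. The SCC6 libraries 2a and 2b, named in accession order, had r = -0.46 and -0.39 with PBS of day 1 and 0.53 and 0.57 with PBS of day 2, and each was taken as day 1 in turn in the fits with the block.

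The genes and gene lists were chosen with earlier results of these data known. Named are all 9 retinoid genes, list genes called in a line with a change of 1 or more in size on the log2 scale there, and the 3 genes most like each retinoid gene whose mean log2 CPM is 3 or more. Some genes of the lists are counted but their values are not reported here. RXRA, BTG2, RDH10, FABP5 and FLG of SCC25, CD68 of SCC25, KRT19 of SCC6 and the cell markers EPCAM and CD3E were named after their values were seen. Lists of endothelial and melanocyte markers were also examined: of the 4 endothelial markers none passed in any line, and of the 4 melanocyte markers 1, PMEL, rose in SCC1 by 0.59.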

Additional observations from a re-analysis of the deposited data

Results flagged for a closer look

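The change of DHRS9 under cetuximab was flagged over the 3 lines (edgeR's quasi-likelihood test, adjusted p = 5.6e-07), with log2 fold changes of -4.07 in SCC6 and -1.47 in SCC25 and few counts in SCC1. DHRS9 entered that fit through SCC6 and SCC25, so only the difference between SCC6 and SCC25 is read (adjusted p = 0.00048). The change of RARG differed between the lines (adjusted p = 9.4e-05), with 1.29 in SCC1, 0.94 in SCC6 and -0.17 in SCC25. The change of RARRES1 differed between the lines (adjusted p = 0.02), with 0.59 in SCC1, -1.51 in SCC6 and 0.60 in SCC25, of which the change in SCC1 alone was called. With day as a block that difference had an adjusted p of 0.2, and without the SCC6 PBS library of day 5 one of 0.1. The PBS library of day 5 in SCC6 stood far from the other 4 for CYP26B1, at 8.43 CPM against 3.93 CPM in the nearest, a gap of 0.73 of the range of the group against a critical value of 0.71. Chance puts about 1 in 20 such groups past that value.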

How the results depend on the processing

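Of 2110 values of the retinoid genes under an alternative, 1984 kept their sign and their side of the threshold, 51 lost a call, 51 gained 1 and 24 turned sign, of which 3 involve a call. In SCC6, the flow cell as a covariate sets cetuximab 2a, 2b and day 3 against PBS of days 2 to 5, so those values mix treatment and day. With the flow cell as a covariate the turned values were CRABP2 at -0.52 in SCC6 (called) and -0.13 in SCC25, DHRS3 at -0.39 in SCC6 and -0.22 over the 3 lines, CYP26B1 at -0.46 in SCC6 and RARG at 0.02 in SCC25. The others were the PBS slope of DHRS9 in SCC6 without day 0 (0.02), DHRS3 in SCC25 with day 0 added (0.04), RARRES1 over the 3 lines with day as a block (0.12), and, with library totals alone, CRABP2 in SCC1 on days 1 to 3 (0.03) and the PBS level of RARG in SCC6 against SCC1 (-0.07). The number of the 9 genes called went from 4 to 1 in SCC6 with a size threshold of 1 on the log2 scale, from 3 to 1 in SCC25 with the flow cell as a covariate, and from 3 to 5 for differences between lines with day as a block and 2a as day 1. For differences between periods in SCC6 it went from 0 to 1 with DESeq2 and with no filter, and for PBS slopes in SCC1 from 2 to 1 without day 0. The cause was not tested. Leaving out single libraries, the number called was 3 to 5 in SCC1, 3 to 5 in SCC6 and 3 in SCC25 each time, 4 to 5 over the 3 lines and 3 to 4 between lines. It was 0 to 1 between periods in SCC6, 1 to 3, 3 to 4 and 3 to 4 for the PBS slopes of SCC1, SCC6 and SCC25, and 8 for PBS levels each time. Calls changed by the day block are given beside each result, and it changed no other call of the 9 genes in the fits within lines, over the lines and between lines, except DHRS3 over the 3 lines (0.52, adjusted p = 0.017 and 0.0063). Over all genes, the number called moved from 8061 to 4197 in SCC1 and from 3496 to 1417 in SCC25 with the flow cell as a covariate, and from 5586 to 3080 between lines. With the size threshold it was 1572 in SCC1, 1687 in SCC6 and 300 in SCC25. Between periods it went from 0 to 202, 3366 and 7 in SCC1, SCC6 and SCC25 when no filter on low counts was used. On days 4 and 5 in SCC25 DESeq2 called 1175 genes against 562. Without day 0, PBS slopes were called for 99, 1892 and 1090 genes in SCC1, SCC6 and SCC25, against 474, 5812 and 2147, and DESeq2 called 1485 in SCC1. With single libraries left out, values that turned sign ranged from -0.14 to 0.17 for CRABP2 in SCC6, -0.04 to 0.73 for CYP26B1 in SCC6, -0.20 to 0.04 for DHRS3 in SCC25, -0.15 to 0.02 for CRABP2 and -0.29 to 0.13 for RARRES1 over the 3 lines, -0.31 to 0.11 for CRABP2 in SCC1 on days 1 to 3, -0.01 to 1.31 for CYP26B1 in SCC6 on days 4 and 5, and -0.50 to 0.02 for the PBS slope of DHRS9 in SCC6. The few counts of CYP26A1 in SCC1 and SCC25, RARB in SCC6 and DHRS9 in SCC1 limit what could be detected there.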
